A study of Homo sapiens with 6 samples.

Results

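The protocadherins were chosen by gene symbol: the 54 genes of the clustered alpha, beta and gamma families and the 11 PCDH genes named with a number alone. Together they made 65 of the 58830 genes in the deposited table, with 16 alpha, 16 beta, 22 gamma and 11 non-clustered members. All 6 libraries came from HuES8, an established human embryonic stem cell line, differentiated towards definitive endoderm, the germ layer that gives rise to gut, liver and pancreas. Of these, 3 libraries were of wildtype cells (DE) and 3 of cells with GATA6-AS1, a long non-coding RNA transcribed beside the endoderm regulator GATA6, knocked down (KD). Both groups received 100 ng/mL Activin A with 2.5 µM CHIR on day 1 and Activin A alone for 2 more days, in DMEM-F12 with 0.2% BSA. How the knockdown was made, and whether the wildtype cells carried a control construct, is not given in the sources. Nothing states that the 3 replicates of a group came from separate cultures, so a p-value here reflects the scatter among these libraries alone, and that scatter may be technical.

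Protocadherins are cell surface proteins of the cadherin superfamily, with a row of extracellular cadherin repeats. The clustered genes lie head to tail on chromosome 5. Each alpha and gamma gene has its own promoter and its own large first exon, which codes for the extracellular and membrane-spanning parts and is spliced to a few constant exons at the end of the cluster. Beta genes have no constant exons. In neurons each cell uses a different handful of these promoters, a choice that involves CTCF, cohesin and DNA methylation, and the proteins on facing membranes bind their own kind. The C-type genes at the ends of the alpha and gamma clusters are chosen by other means. The non-clustered members are single genes that act in cell adhesion and in signalling from the membrane.

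A short sequence before the start of most clustered genes is known for its CGCT core and for being bound by CTCF. The promoters are shown because they set the clusters apart in sequence, and because the highest genes of each cluster can be compared by them. RefSeq promoters on GRCh38.p14 were matched by symbol for 56 of the 65 members, each with 250 bases before and 50 after the start. Windows are on the plus strand, the strand of all clustered genes, and capitals mark the element of the cluster. Elements were chosen after the promoter sequences were seen. For the alpha genes PCDHA2 (chr5:140794763-140794812), PCDHA10 (chr5:140855823-140855872) and PCDHA11 (chr5:140868865-140868914), 3 of the highest of the cluster, the letters were as follows.
PCDHA2: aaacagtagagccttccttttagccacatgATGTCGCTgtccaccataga
PCDHA10: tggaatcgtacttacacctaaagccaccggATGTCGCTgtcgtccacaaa
PCDHA11: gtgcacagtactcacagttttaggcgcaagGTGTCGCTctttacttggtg

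The alpha element ATGTCGCT, searched on both strands, was in 9 of 13 alpha promoters and in 0.234% of all 35116 promoters in the table. It was in no beta, gamma or non-clustered promoter of the members. PCDHA11 and PCDHA9 each differed from it at 1 base, A1G and G6A, counted from 1 at the 5′ end of the element with its own base first. No such near match lay before the start of PCDHAC1 or PCDHAC2, the C-type alpha genes. With 1 difference allowed the element was in 10.1% of all promoters. The last CGCT before the start of PCDHAC2, in capitals at chr5:140966423-140966452, had other neighbours.
PCDHAC2: gagccctcctacCGCTccctttccccctcc

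For the beta genes PCDHB2 (chr5:141094526-141094575), PCDHB5 (chr5:141135161-141135205) and PCDHB15 (chr5:141245296-141245345), the 3 highest of their cluster, the windows shared a longer stretch.
PCDHB2: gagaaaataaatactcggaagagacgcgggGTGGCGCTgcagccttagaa
PCDHB5: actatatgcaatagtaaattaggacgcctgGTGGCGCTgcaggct
PCDHB15: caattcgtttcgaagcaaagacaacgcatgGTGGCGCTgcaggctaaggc

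The beta element GTGGCGCT was in 13 of 14 beta promoters and in 1.15% of all promoters, on either strand. PCDHB1, the first gene of the cluster, was the beta promoter without an exact copy. Its nearest match before the start differed by C5T and began 25 bases before it. With 1 difference allowed the beta element was in 26.5% of all promoters. For gamma, the windows of PCDHGA10 (chr5:141412915-141412964), PCDHGB7 (chr5:141417567-141417616), PCDHGC3 (chr5:141475864-141475913) and PCDHGC4 (chr5:141484936-141484985) are shown, the 4 highest of the cluster.
PCDHGA10: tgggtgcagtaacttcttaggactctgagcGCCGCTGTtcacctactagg
PCDHGB7: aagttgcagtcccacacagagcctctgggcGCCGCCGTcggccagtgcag
PCDHGC3: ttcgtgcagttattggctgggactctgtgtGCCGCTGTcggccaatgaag
PCDHGC4: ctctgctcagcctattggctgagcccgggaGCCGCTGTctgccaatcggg

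The gamma element GNCGCTGT, in which N is any base, was in 17 of 20 gamma promoters and in 4.35% of all promoters, on either strand. It overlaps the alpha element by its CGCT core, and 5 alpha promoters and 1 beta promoter held it too. PCDHGB7, the highest gamma gene, differed from it by T6C, PCDHGB3 by G7C and PCDHGA11 by T8C. With 1 difference allowed this element was in 60.3% of all promoters, so these near matches, the capitals of PCDHGB7 among them, set nothing apart. The core CGCT alone was in 70% of all promoters and so separates nothing. Exact copies began at a median of 52 bases before the start in alpha, 65 in beta and 60 in gamma. Promoter GC content had a median of 37.3% in alpha, 40.8% in beta, 47.3% in gamma and 56.8% in the non-clustered genes, beside 58.7% over all promoters. These medians count every promoter window, and 6 members had more than 1. In gamma those were PCDHGB1, PCDHGB4, PCDHGB5, PCDHGB6 and PCDHGC4. The further window of each had a higher GC content, which raises the gamma median. The C-type promoters lay above the medians of their clusters. Their GC content was 66.0% in PCDHAC1, 63.0% in PCDHAC2, 59.0% in PCDHGC3, and 60.7% and 62.3% in the windows of PCDHGC4. A match is a description of letters, and no binding was measured. The promoters of PCDH10, PCDH20, PCDHA13, PCDHA14, PCDHA3, PCDHB11, PCDHB6, PCDHGA12 and PCDHGC5 were not analysed here.

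**Figure D1:**
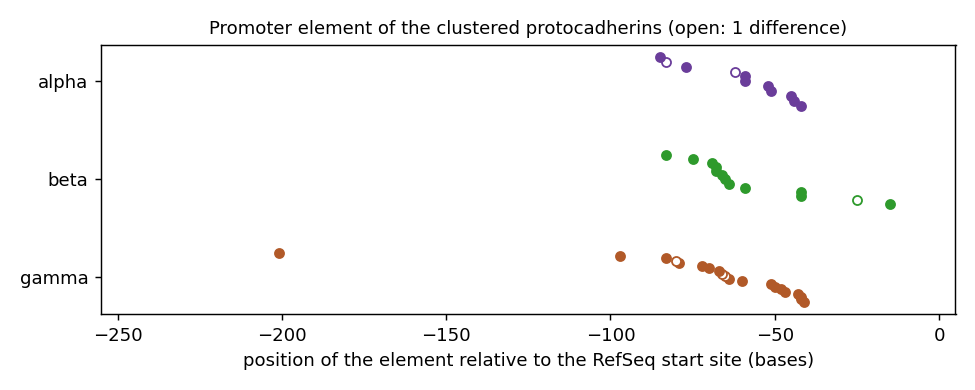
Position of the cluster's element before the RefSeq start site (x axis, bases) in the alpha, beta and gamma promoters, 1 point per gene with a match wholly before the start. PCDHB8, whose exact copy spans the start, and PCDHAC1 and PCDHAC2, which had no match, are not drawn. Filled points hold the element exactly and open points differ at 1 base. Most points lie between 41 and 85 bases before the start, and PCDHGB2 at 201 is the farthest.

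Expression was given as TPM, a unit that divides reads by gene length and by the library's total. From the whole-read steps in the low values, the libraries held an estimated 18640839 to 24510643 reads, and 1 TPM of a gene of 2 kb stood for 11.28 to 16.16 reads. Mitochondrial transcripts took 24.6% to 38.0% of TPM, with the highest share in replicate 3 of each group. GATA6-AS1, the targeted gene, was at 389, 421 and 314 TPM in DE against 180, 163 and 126 TPM in KD. The groups did not overlap, and the log2 change was -1.26 (SE 0.16, limma adjusted p = 0.01282; exact permutation p = 0.1, two-sided, the smallest that 3 against 3 allows). The call was lost without DE replicate 1 (limma adjusted p = 0.06437) and without KD replicate 2 (limma adjusted p = 0.05905). Endoderm markers were present, with SOX17 at 443 to 673 TPM in DE and 198 to 343 TPM in KD and FOXA2 at 126 to 130 TPM in DE and 68.4 to 80.2 TPM in KD. Of 8 endoderm markers, 5 fell in KD, FOXA2 among them (log2 -0.74, limma adjusted p = 0.01253), and 5 of 6 pluripotency markers rose, such as POU5F1 (log2 0.87, limma adjusted p = 0.01312). SOX17 did not pass (log2 -1.07, limma adjusted p = 0.05301). With the replicate number as a block it did (limma adjusted p = 0.007573). That fit, which called 12.5% of all genes, had all 8 endoderm markers lower and 5 pluripotency markers higher. Over all 17711 genes tested, 579 passed (3.27%), 314 higher in KD (1.77%) and 265 lower (1.5%).

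The protocadherins of these cells were dominated by 2 non-clustered genes, and in each cluster a few genes held most of the signal. In DE the summed TPM of the 11 non-clustered genes was 272.9 ± 18.4 (SD, n = 3), of the 22 gamma genes 73.2 ± 9.06, of the 16 beta genes 60.2 ± 6.75 and of the 16 alpha genes 30.1 ± 6.72. PCDH10 alone made 63.6% of the non-clustered sum, and PCDH10 with PCDH1 made 90.6%. The 4 highest genes made 68% of the beta sum, 64.9% of the gamma sum and 52.3% of the alpha sum. TPM uses the full exon length, which for alpha and gamma genes includes constant exons. TPM was also rescaled to the exon bases that no other gene shares, as if every read of a gene lay in them. The DE sums were then 59.3 ± 13.7 in alpha (15 genes, PCDHA14 having no such bases), 68.3 ± 7.68 in beta, 130 ± 16.4 in gamma and 276 ± 19.0 in the non-clustered genes. Reads within those bases were not counted apart, so these sums are the most that the counted reads allow. Any reads left out of the counts as fitting several genes are not in them. On that scale the alpha and beta sums overlapped in DE. In these bulk samples, fewer cells of a type and less RNA per cell cannot be told apart, and a middling level cannot show whether many cells used a promoter a little or few cells used it much.

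**Figure D2:**
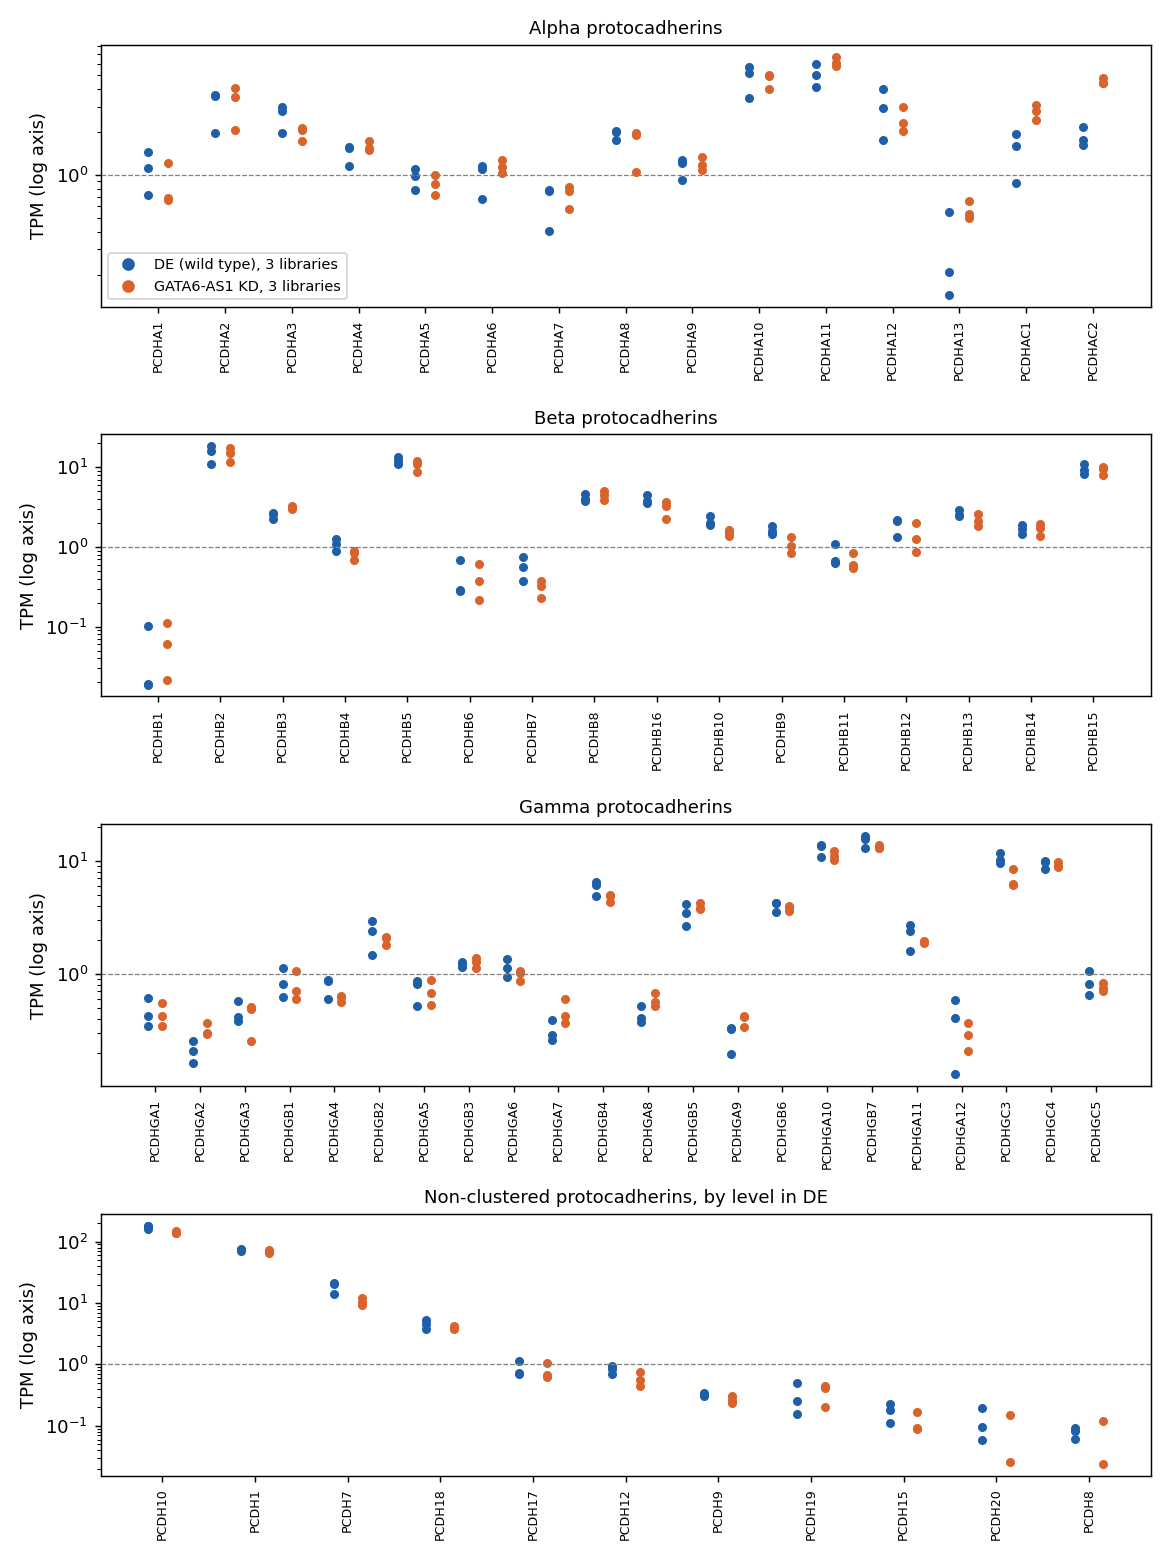
TPM (log axis) of the protocadherins in each library, DE in blue and KD in orange, with 1 panel each for alpha, beta, gamma and non-clustered genes. The dashed line marks 1 TPM, values of 0 are not drawn and PCDHA14, at 0 in every library, is left out. PCDH10 and PCDH1 lie far above all other members.

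Of the 65 members, 38 had at least 1 TPM in at least 3 libraries and were tested: 12 alpha, 11 beta, 11 gamma and 4 non-clustered. With KD minus DE on the log2(TPM + 1) scale, 1 member rose, PCDHAC2, 0 fell and 37 did not pass. A count of 1 in 38 is near the 3.27% of all genes called. At an unadjusted limma p under 0.05 there were 5 members, PCDHAC2, PCDHAC1, PCDHGC3, PCDH7 and PCDH10, a share of 38 near the 15.4% of all genes. With the replicate number as a block, which called 12.5% of all genes (5.88% higher, 6.62% lower), 1 member was higher and 3 were lower, PCDH7, PCDH10 and PCDHGC3. With limma voom on the estimated reads, 5 members passed, the same 5 as at the unadjusted limit, where 12.6% of all genes passed. Each of these shares lay near its background. The log2 change was negative in 27 tested members and positive in 11, beside 9032 and 8679 of all genes tested. Its median was -0.10 in the members and -0.01 over all genes tested. Members share libraries, and some share exons, so their signs are not independent, and the difference was not tested. By cluster the median was 0.05 in alpha, -0.18 in beta, -0.11 in gamma and -0.21 in the non-clustered genes. The groups of libraries did not overlap in 8 tested members, 5 with KD lower, where 10.7% of all genes tested did so, and 3 with KD higher, where 10.1% did.

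**Figure D3:**
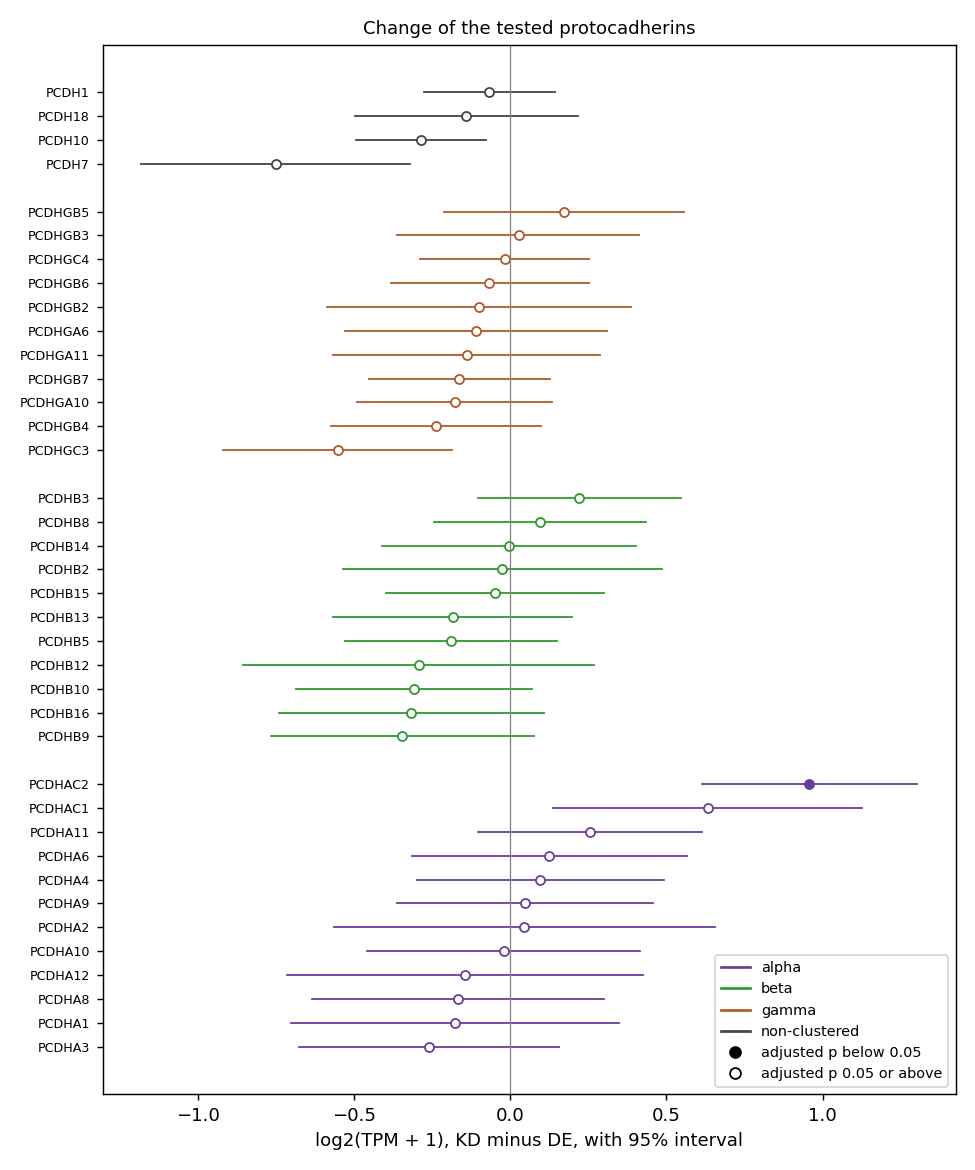
Log2 change, KD minus DE on the log2(TPM + 1) scale (x axis), with limma's 95% interval, of the 38 tested protocadherins, coloured by cluster. The filled point, PCDHAC2, is the one with an adjusted p below 0.05. The intervals of PCDHAC1, PCDHGC3, PCDH7 and PCDH10 also leave out 0.

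PCDHAC2, the last alpha gene before the constant exons and a C-type isoform, stood at 1.75, 2.17 and 1.62 TPM in DE against 4.35, 4.79 and 4.39 TPM in KD. All 3 KD libraries lay above all 3 DE libraries, and the mean TPM was 2.44 times as high. The log2 change was 0.96 (95% interval 0.61 to 1.30, SE 0.15, limma adjusted p = 0.01961). These values stood for 66 to 88 reads in DE and 155 to 224 reads in KD. Its share of all alpha TPM went from 6.26% ± 1.04 (SD, n = 3) in DE to 13.3% ± 1.35 in KD. The call was lost when no filter on low values was used (limma adjusted p = 0.07246). It was also lost without DE replicate 1 (0.0967), KD replicate 1 (0.07523), KD replicate 2 (0.1225) or KD replicate 3 (0.0628), all limma adjusted p, which ran from 0.0005695 to 0.1225 over all alternatives. The gene spans chr5:140966235-141012344 on the plus strand (GRCh38, GENCODE 29). At its 5′ end it overlaps AC010223.1, a gene outside the family. The strand setting is not given, so reads within the overlap could not be told apart. The overlap is a small part of the gene. Of its 6318 exon bases, 3196 lay in no other gene's exons and 2866 were shared with other members.

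PCDHAC1, the other C-type alpha gene, lies next to it and was at 1.93, 1.59 and 0.870 TPM in DE against 2.81, 3.07 and 2.41 TPM in KD. The KD libraries were again all above the DE libraries, but the change did not pass (log2 0.63, SE 0.21, limma adjusted p = 0.1959). Its adjusted p ran below 0.05 with quantile scaling (limma, 0.04774) and with voom on estimated reads (limma, 0.02272). Without these 2 genes the summed alpha TPM was 30.1, 30.3 and 19.8 in DE and 28.7, 29.2 and 22.9 in KD. These sums overlapped, and DE replicate 3 was the lowest library of the 6. Over all 16 alpha genes the sums were 33.8, 34.1 and 22.3 in DE and 35.9, 37.1 and 29.7 in KD, which overlapped as well.

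**Figure D4:**
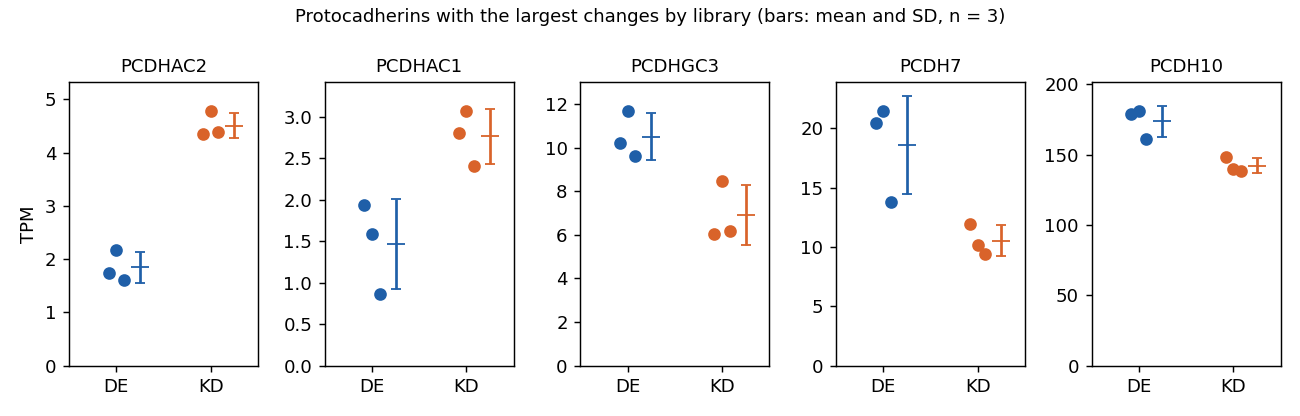
TPM in each library (y axis from 0, a scale of its own in each panel) of the 5 protocadherins with an unadjusted p under 0.05. Points are libraries, and bars show the mean and SD of 3. All KD points lie above all DE points in PCDHAC2 and PCDHAC1 and below them in PCDHGC3, PCDH7 and PCDH10.

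The other alpha genes code for the variable isoforms, of which neurons use a few each. PCDHA11 was the highest, at 5.005, 5.97 and 4.14 TPM in DE against 6.72, 6.03 and 5.73 TPM in KD. PCDHA10 followed at 5.19, 5.65 and 3.46 TPM in DE against 4.97, 4.89 and 3.99 TPM in KD. These neighbours in the order did not differ beyond their spread in DE, and neither passed (limma adjusted p = 0.5385 and 0.9886). PCDHA2 was at 3.60, 3.58 and 1.97 TPM in DE against 3.49, 4.03 and 2.04 TPM in KD. PCDHA12 was at 3.97, 2.91 and 1.76 TPM in DE against 2.31, 2.98 and 2.02 TPM in KD. PCDHA3 was at 2.98, 2.80 and 1.95 TPM in DE against 2.12, 2.06 and 1.73 TPM in KD. In all 3 replicate 3 was the lowest of its group, and the groups overlapped. PCDHA8 was at 1.99, 2.02 and 1.75 TPM in DE against 1.91, 1.96 and 1.04 TPM in KD. PCDHA4 was at 1.54, 1.58 and 1.15 TPM in DE against 1.53, 1.74 and 1.48 TPM in KD. PCDHA9 was at 1.21, 1.27 and 0.922 TPM in DE against 1.18, 1.34 and 1.08 TPM in KD. These lay near the filter, as did the next pair. PCDHA1 was at 1.45, 1.11 and 0.719 TPM in DE against 1.21, 0.686 and 0.663 TPM in KD. PCDHA6 was at 1.09, 1.14 and 0.682 TPM in DE against 1.27, 1.13 and 1.03 TPM in KD. None of these 10 variable alpha genes passed, and all 10 had overlapping groups, with log2 changes from -0.26 (PCDHA3) to 0.26 (PCDHA11).

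The 4 alpha genes not tested were PCDHA5, PCDHA7, PCDHA13 and PCDHA14. PCDHA5 reached 1.10 TPM in 1 DE library, and PCDHA13 had as few as 5 reads in a library. PCDHA14, annotated as a pseudogene within the exons of PCDHA10, was at 0 in every library, and its bases cannot be told from those of PCDHA10. The alpha genes share 21.3% to 56.6% of their exon bases with other members in GENCODE 29, apart from PCDHA14. With as few as 5 reads for PCDHA13 beside up to 291 for PCDHA11, reads in the constant exons had not been added to every gene. Dividing by the private exon bases alone raised the DE mean of PCDHA11 to 9.42 on that scale, and it remained the highest alpha gene. PCDHA12, at 7.82, then came before PCDHA10, at 7.59, so the order below PCDHA11 depended on the length used.

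The beta genes code for single-exon proteins that take part in the same recognition units as alpha and gamma isoforms. The cluster summed to 61.1, 66.4 and 53.0 TPM in DE against 58.3, 56.4 and 50.6 TPM in KD, with overlap. PCDHB2 was the highest, at 16.0, 18.3 and 10.9 TPM in DE against 17.3, 15.1 and 11.5 TPM in KD. PCDHB5 was at 11.1, 12.2 and 13.3 TPM in DE against 8.74, 11.0 and 12.1 TPM in KD. In PCDHB5 replicate 3 was the highest of its group, unlike in PCDHB2, where it was the lowest. PCDHB15 was at 9.36, 11.1 and 8.17 TPM in DE against 10.1, 9.44 and 8.01 TPM in KD. In DE the values of PCDHB2 overlapped those of PCDHB5 and PCDHB15, so the order of these neighbours was not beyond their spread. The log2 changes of the 3 were -0.03, -0.19 and -0.05 (limma adjusted p = 0.9886, 0.6725 and 0.9608).

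Of the middle beta genes, PCDHB8 was at 3.98, 4.60 and 3.79 TPM in DE against 5.05, 3.92 and 4.47 TPM in KD. PCDHB16 was at 3.83, 4.52 and 3.56 TPM in DE against 3.62, 3.22 and 2.23 TPM in KD. These overlapped between the groups. PCDHB3 was at 2.71, 2.27 and 2.58 TPM in DE against 3.22, 3.02 and 3.06 TPM in KD. PCDHB10 was at 1.90, 2.45 and 1.98 TPM in DE against 1.51, 1.39 and 1.62 TPM in KD. PCDHB9 was at 1.58, 1.83 and 1.44 TPM in DE against 0.844, 1.32 and 1.04 TPM in KD. All KD values lay above DE in PCDHB3 and below DE in PCDHB10 and PCDHB9, yet none passed (limma adjusted p = 0.5631, 0.4494 and 0.4476). PCDHB13 was at 2.90, 2.49 and 2.42 TPM in DE against 2.103, 2.61 and 1.83 TPM in KD. PCDHB12 was at 2.20, 2.13 and 1.32 TPM in DE against 2.01, 0.872 and 1.24 TPM in KD. PCDHB14 was at 1.91, 1.68 and 1.44 TPM in DE against 1.73, 1.94 and 1.36 TPM in KD. These overlapped, and PCDHB14 had nearly equal means, with a log2 change of -0.003 that turned to 0.009 with quantile scaling. PCDHB4 reached a mean of 1.08 TPM in DE, at 1.24, 1.10 and 0.890 TPM, with 0.881, 0.843 and 0.679 TPM in KD, and fell below the filter.

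PCDHB1, PCDHB6, PCDHB7 and PCDHB11 were also not tested. PCDHB1, which shared no stretch of 50 bases with another member, was the lowest, at 0.0189 to 0.112 TPM, or 1 to 6 reads a library. Beta genes resemble each other in sequence. Of the stretches of 50 bases in PCDHB8, 36.7% also occurred in 1 to 3 other members, mostly in PCDHB13, and for PCDHB10 25.9% did, mostly in PCDHB9. How the authors counted reads that fit several genes is not stated in the labels, so the levels of these genes are uncertain. Exons of genes outside the family, on either strand, also overlap those of 13 of the 16 beta members in GENCODE 29.

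The gamma genes fall into A, B and C types, of which PCDHGC3, PCDHGC4 and PCDHGC5 are the C types. The cluster summed to 76.8, 79.8 and 62.9 TPM in DE against 62.0, 69.8 and 62.0 TPM in KD, with overlap. In DE the 12 gamma A genes summed to 20.1 ± 2.64 TPM (SD, n = 3) and the 7 gamma B genes to 32.4 ± 4.63 TPM. In KD the sums were 18.1 ± 1.37 and 29.6 ± 1.37 TPM, each overlapping DE.

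PCDHGC3, a C type known for being expressed widely and not only in neurons, was at 10.2, 11.7 and 9.60 TPM in DE against 6.04, 8.48 and 6.20 TPM in KD. The highest KD library lay below the lowest DE library. The log2 change was -0.55 (SE 0.16, 95% interval -0.92 to -0.19), which did not pass (limma adjusted p = 0.1261). With the replicate block it did (limma adjusted p = 0.01652). Its share of gamma TPM was 14.4% ± 1.02 (SD, n = 3) in DE and 10.6% ± 1.32 in KD. PCDHGC4, its neighbour and another C type, was at 9.92, 9.65 and 8.47 TPM in DE against 8.84, 9.75 and 9.05 TPM in KD. The groups overlapped, and the log2 change was -0.02 (95% interval -0.29 to 0.25, limma adjusted p = 0.9854). PCDHGC5, the last C type, stayed at or below 1.06 TPM in every library and was not tested. The C-type members thus had log2 changes of 0.96 and 0.63 in alpha and -0.55 and -0.02 in gamma, whose differences were not tested.

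The highest gamma gene was PCDHGB7, at 15.5, 16.5 and 12.8 TPM in DE against 12.9, 13.7 and 13.0 TPM in KD. PCDHGA10 followed at 13.5, 13.7 and 10.9 TPM in DE against 10.9, 12.2 and 10.1 TPM in KD. These 2 genes lie side by side, and their DE values overlapped. Those of PCDHGC3 overlapped PCDHGA10 and PCDHGC4 as well, while all DE values of PCDHGC4 lay above those of PCDHGB4, the next in the order. PCDHGB4 was at 6.03, 6.43 and 4.84 TPM in DE against 4.96, 4.91 and 4.30 TPM in KD. PCDHGB6 was at 4.20, 4.25 and 3.54 TPM in DE against 3.74, 4.01 and 3.56 TPM in KD. PCDHGB5 was at 4.09, 3.47 and 2.65 TPM in DE against 3.80, 4.21 and 3.75 TPM in KD. Groups overlapped in all of these. PCDHGB2 was at 2.40, 2.91 and 1.46 TPM in DE against 1.78, 2.06 and 2.13 TPM in KD. PCDHGA11 was at 2.40, 2.68 and 1.60 TPM in DE against 1.92, 1.93 and 1.85 TPM in KD. In DE replicate 3 was the lowest in both, while the KD libraries lay close together. PCDHGB3 was at 1.15, 1.28 and 1.20 TPM in DE against 1.12, 1.26 and 1.38 TPM in KD. PCDHGA6 was at 0.937, 1.34 and 1.12 TPM in DE against 0.852, 1.01 and 1.05 TPM in KD. None of these 9 genes passed, with log2 changes from -0.24 (PCDHGB4) to 0.17 (PCDHGB5).

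The other 11 gamma genes stayed between 0.129 and 1.11 TPM and were not tested. Of them 9 were of type A, so only PCDHGA6, PCDHGA10 and PCDHGA11 of the 12 type A genes were tested, against 6 of the 7 of type B. PCDHGA12 had the fewest reads, 4 in its lowest library. Gamma genes share 27.6% to 64.4% of their exon bases with other members, and the highest share was in PCDHGB4, whose exons in GENCODE 29 also overlap PCDHGA8. On the scale of private exon bases the order of the 5 highest gamma genes was the same as by TPM: PCDHGB7, PCDHGA10, PCDHGC3, PCDHGC4 and PCDHGB4.

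Among the non-clustered genes PCDH10, which binds the actin regulators of the WAVE complex through its cytoplasmic tail, was the highest of all 65. Its TPM was 178, 181 and 161 in DE and 148, 140 and 138 in KD. All KD libraries lay below all DE libraries, and the KD mean was 0.819 times the DE mean. The log2 change was -0.29 (SE 0.09, 95% interval -0.49 to -0.08), which did not pass (limma adjusted p = 0.1646) and did with the replicate block (limma adjusted p = 0.02455). PCDH7, of the delta-1 type, was at 20.4, 21.5 and 13.8 TPM in DE against 11.9, 10.2 and 9.37 TPM in KD. The groups did not overlap, although DE replicate 3 came near KD replicate 1. Its log2 change of -0.75 (SE 0.18, 95% interval -1.18 to -0.32) was the most negative of the tested members and did not pass (limma adjusted p = 0.08231). With the block it passed (limma adjusted p = 0.01073), as it did without DE replicate 3 (limma adjusted p = 0.02152).

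PCDH1, a delta-1 member known from epithelia, was at 75.9, 73.8 and 70.9 TPM in DE against 65.9, 70.8 and 74.2 TPM in KD. The groups overlapped, with a log2 change of -0.07 (95% interval -0.28 to 0.14, limma adjusted p = 0.8595). PCDH18 was at 4.50, 5.34 and 3.73 TPM in DE against 4.22, 3.83 and 3.87 TPM in KD, overlapping too (limma adjusted p = 0.8057). In DE the order from PCDH10 through PCDH1 and PCDH7 to PCDH18, a delta-2 member, held in every library without overlap. The non-clustered sum was 282.6, 284.5 and 251.7 TPM in DE against 233.1, 226.4 and 227.7 TPM in KD, without overlap. Without PCDH7 and PCDH10 it was 83.6, 81.9 and 76.8 TPM in DE against 72.8, 76.6 and 80.0 TPM in KD, with overlap. The other 7, PCDH8, PCDH9, PCDH12, PCDH15, PCDH17, PCDH19 and PCDH20, ranged from 0 to 1.12 TPM and were not tested. PCDH8 and PCDH20 had at most 4 and 6 reads in any library. PCDH12, known from endothelium, was at 0.454 to 0.943 TPM, and the 7 endothelial markers listed were all below 1 TPM in all libraries.

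**Figure D5:**
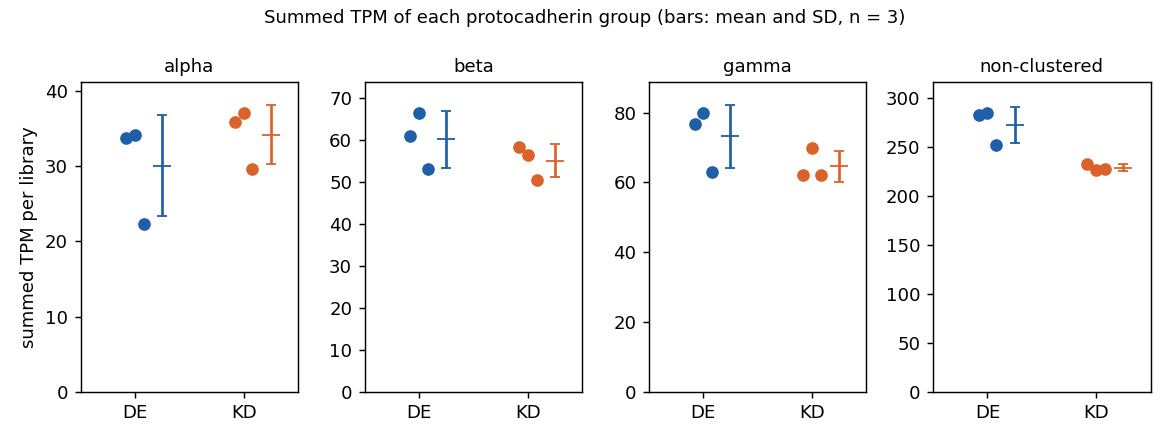
Summed TPM of the alpha, beta, gamma and non-clustered protocadherins in each library (y axis from 0, a scale of its own in each panel). Points are libraries, and bars show the mean and SD of 3. DE and KD overlap in alpha, beta and gamma and do not overlap in the non-clustered genes.

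Many members were lowest in the same libraries, as were most genes. Among the 39 members whose mean reached 1 TPM in DE or KD, DE replicate 3 was the lowest DE library in 34, and KD replicate 3 the lowest KD library in 24. Over all genes tested the shares were 78.4% and 68.3%, so this was a shift of the libraries and is not particular to the protocadherins. These are the libraries with the largest mitochondrial shares, 38.0% and 36.2%, and the part of that share in the members' values was not tested. With TPM computed without mitochondrial genes, PCDHAC2, PCDH7, PCDH10 and PCDHGC3 passed (limma adjusted p = 0.004305, 0.01183, 0.03783 and 0.04133), in a setting that called 9.62% of all genes. Without replicate 3 of both groups, PCDHAC2, PCDH7 and PCDH10 passed (limma adjusted p = 0.03158, 0.01086 and 0.03413), where 7.55% of all genes passed.

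Genes around the protocadherins were counted from lists by role. Over all genes tested, limma called 3.27%, or 12.5% with the replicate block and 12.6% with voom, and 15.4% had an unadjusted p under 0.05. The counts of the lists were not tested against these shares. CTCF and the cohesin subunits and loaders, which fold the clusters to their enhancers, numbered 11, all tested, and 0 passed, with a median log2 change of 0.02. CTCF itself was at 90.1, 94.2 and 83.4 TPM in DE against 88.8, 90.7 and 93.7 TPM in KD, with overlap. By limma 0 of the 11 also passed with the replicate block, 0 had an unadjusted p under 0.05, and 0 passed with voom. Of 14 genes for DNA methylation and silencing of the clusters, 1 rose, DNMT3B, a de novo DNA methyltransferase, from 431 ± 45.2 to 617 ± 30.8 TPM (SD, n = 3; log2 0.52, limma adjusted p = 0.04476). SMCHD1, a silencer of clustered protocadherins, was at 32.8 ± 6.35 and 33.0 ± 3.80 TPM (limma adjusted p = 0.9868). With the replicate block 2 of the 14 were higher, the other being DNMT3A, at 32.7 ± 1.75 and 40.2 ± 1.31 TPM (limma adjusted p = 0.1781, with the block 0.02977). The median over these 14 was 0.05.

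Of 18 intracellular partners of protocadherins, 1 rose, CYFIP2, a subunit of the WAVE complex, from 6.95 ± 0.315 to 12.8 ± 1.63 TPM (SD, n = 3; log2 0.79, limma adjusted p = 0.02204). WASF1, another WAVE subunit, went from 62.6 ± 2.19 to 47.2 ± 1.92 TPM and did not pass (limma adjusted p = 0.05902), while it did with the replicate block (limma adjusted p = 0.01178). Of 42 other cadherin superfamily genes 21 were tested, of which 2 rose and 1 fell, where 3.27% of all genes passed. By limma 7 of the 21 had an unadjusted p under 0.05, where 15.4% of all genes did. With voom 8 of the 21 passed, where 12.6% of all genes did. CDH1, the epithelial cadherin, rose from 121 ± 7.71 to 219 ± 8.12 TPM (log2 0.85, limma adjusted p = 0.00572). CDH11 rose from 2.04 ± 0.434 to 5.17 ± 0.861 TPM (log2 1.02, limma adjusted p = 0.02842). DCHS1, a large cadherin that binds FAT4, fell from 19.4 ± 1.85 to 11.7 ± 0.251 TPM (log2 -0.68, limma adjusted p = 0.024). CDH2, the neural cadherin also present in endoderm, was at 446 ± 56.2 and 303.7 ± 18.0 TPM and did not pass (limma adjusted p = 0.05222), while it did with the replicate block (limma adjusted p = 0.008391). With the block, which called 12.5% of all genes, 3 of the 21 were higher and 3 lower. The further genes were CDH3 (limma adjusted p = 0.3744, with the block 0.04057) and CLSTN3 (limma adjusted p = 0.07405, with the block 0.01359).

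Of 25 neighbours of the clusters on chromosome 5, 21 were tested and 0 passed by limma, with 1 at an unadjusted p under 0.05 and 1 passing with voom. The smallest p among them was of SPRY4, an inhibitor of receptor tyrosine kinase signalling, at 151 ± 9.43 and 205 ± 11.3 TPM (SD, n = 3; log2 0.44, limma adjusted p = 0.0524, with the block 0.005188). Of the relatives left out by the symbol rule, PCDH11X was the one tested, at 1.14 ± 0.185 and 2.33 ± 0.358 TPM (limma adjusted p = 0.1155). Neuroectoderm markers, of interest since the clustered genes are best known from neurons, summed to 29.2 to 33.5 TPM in DE and 37.3 to 40.4 TPM in KD. Of the 9 listed, 5 were below 1 TPM in all libraries, and 0 of the 4 tested passed by limma, with or without the block, while 2 had an unadjusted p under 0.05 and 1 passed with voom. Markers of fibroblast feeder cells summed to 48.4 to 57.7 TPM in DE and 75.5 to 81.0 TPM in KD, with 4 of 8 below 1 TPM throughout. Of the 4 tested, THY1 rose from 13.0 to 41.4 TPM (log2 1.60, limma adjusted p = 0.00271), while COL1A1, PDGFRB and COL1A2 did not pass, at log2 changes of -0.31, -0.33 and 0.10. The median of the 4 was -0.10, so the higher sum was that of THY1. Of 8 mesoderm markers 4 were tested, with 1 higher and 1 lower by limma. Of 6 trophoblast markers 2 were tested, GATA3 and ERVW-1, and both fell by limma. The other 4 trophoblast markers were below 1 TPM in all libraries. The part of these cell types, and of the lower endoderm and higher pluripotency markers, in the change of PCDHAC2 was not tested.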

How the data were processed

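RNA-seq of total RNA was measured in 3 DE and 3 KD libraries, grouped by their titles. The authors deposited TPM for 58830 genes. Per the submitters' processing notes, the tools were featureCounts, DESeq2 and HISAT2 2.1.0 and the build was GRCh38, with no roles named. Not given in the sources are the annotation release, the strand setting and the treatment of reads shared between genes. A TPM value depends on the total of its library. Low values (under 50 reads) were whole multiples of a constant per library, within 0.02, for 88.7% to 89.5% of values over 37138 genes matched to GENCODE 29, which gave estimated reads. Of the 65 members, 63 came out as whole reads in every library (within 0.1).

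Genes reaching 1 TPM in 3 or more libraries were tested as log2(TPM + 1) by limma 3.58.1 (R 4.3.3) with a group term and eBayes with trend. P-values were 2-sided and adjusted by Benjamini-Hochberg over 17711 genes, with a threshold of 0.05. Log2 changes are on the scale of TPM plus 1 and understate the change of low genes, while ratios of means are of TPM itself. In simulated data of 14360 genes, 20.8%, 79.4% and 95.7% of changes of 0.5, 1 and 2 (log2) were recovered. There 17 of 14168 unchanged genes were called, 11.4% of all calls. These shares hold for that simulation and were split by size of change alone, so they give no recovery for members of low level. The members and lists were chosen with earlier results of these data known. Members whose mean reached 1 TPM in a group, or that were called, are named with their values, others by range and count. Of the lists, genes that passed with the smallest p (up to 4) are named, or the 1 or 2 with the smallest p, and CTCF, SMCHD1, WASF1, CDH2, DNMT3A, CDH3, CLSTN3, COL1A1, COL1A2, PDGFRB and PCDH11X were added after their values were seen.

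Both groups number their replicates 1 to 3 in the titles. Deviations from the group means of same-numbered libraries correlated at 0.1083, 0.1444 and 0.3468 over genes, all above the limit of 0.1, so a fit blocked on the replicate number is reported wherever it changes a result. The calls given first come from the fit without the block. For DE replicate 2 with KD replicate 1, which are unmatched, the value was 0.1207, so the pairing of replicates 1 and 2 is uncertain. Alternatives were other pseudocounts, filters, scalings and variance settings, the replicate block, omission of each library and, chosen after seeing the data, TPM without mitochondrial genes, leaving out replicate 3 of both groups and voom on estimated reads. Python 3.11.15 with pandas 2.3.3, numpy 2.4.6 and matplotlib 3.10.9 served for the rest.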

Additional observations from a re-analysis of the deposited data

How the results depend on the processing

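Genes called numbered 579 and members called 1. With the replicate block they were 2215 and 4, with quantile scaling 1735 and 5, with median-ratio scaling 1743 and 3, without mitochondrial genes 1700 and 4, without replicate 3 of both groups 1274 and 3, and with voom 1848 and 5. Without a filter they were 239 and 0, and at a mean of 5 TPM 0 members were called, PCDHAC2 not being tested. Members called under any of these settings were all among PCDHAC2, PCDHAC1, PCDHGC3, PCDH7 and PCDH10. Leaving out 1 library gave 75 to 633 genes and 0 to 2 members, and log2 changes of GATA6-AS1 from -1.38 to -1.11. The cause of these shifts was not tested. The block changed no call of a member other than PCDH7, PCDH10 and PCDHGC3. Signs turned only in members that did not pass. PCDHB14 was at 0.009 with quantile scaling, 0.004 without mitochondrial genes and 0.02 without replicate 3 of both groups, and PCDHGB3 at -0.015 without the latter. Leaving out 1 library gave ranges across 0 in PCDHA2 (-0.16 to 0.26), PCDHA8 (-0.26 to 0.009), PCDHA9 (-0.026 to 0.094), PCDHA10 (-0.20 to 0.093), PCDHA12 (-0.37 to 0.055), PCDHB2 (-0.23 to 0.13), PCDHB14 (-0.075 to 0.084), PCDHB15 (-0.14 to 0.058), PCDHGB2 (-0.29 to 0.046), PCDHGB3 (-0.014 to 0.070) and PCDHGC4 (-0.079 to 0.024). Depth limits the members near 1 TPM, where a value rests on few reads.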
